A study of Rattus norvegicus with 6 samples.

Results

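The genes described here are 40 genes of the cell division cycle, 18 that act in DNA replication and its control and 22 that act in G2 phase and mitosis, picked by symbol from a table of 18825 rat genes. All 40 were found, and all 40 had at least 10 counts in every library. Messenger RNA had been sequenced from dorsal wounds through the full thickness of the skin of male Sprague–Dawley rats. All animals were made diabetic with a diet high in fat and sucrose followed by streptozotocin, a toxin of insulin-producing cells. The control group was 3 untreated diabetic wounds, and the other group was 3 diabetic wounds treated with DST-MNs, microneedles that carry spheroids of dental pulp stem cells regulated by spermidine and TGF-β3. The labels give neither the animals' age nor the day of collection, and no wound with bare microneedles is among the samples, so needle and cargo cannot be told apart. The labels call the libraries biological replicates.

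A dividing cell first loads the MCM helicase onto replication origins, fires those origins in S phase, and then condenses and separates its chromosomes in mitosis. The replication genes are switched on largely by E2F transcription factors at the G1/S border, and the mitotic genes later, through the MuvB complex with B-MYB and FOXM1. Messages of both sets are abundant mainly in cycling cells. In healing skin these are keratinocytes at the wound margin, fibroblasts and endothelial cells of granulation tissue, some immune cells, and the matrix cells of growing hair follicles. In whole tissue, fewer cycling cells and less of these RNAs per cell cannot be told apart.

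The promoters printed here were chosen to show the letters of both regulatory classes, the replication genes first. A promoter from RefSeq (build GRCr8), running from 250 bases before to 50 after the annotated start, was available for 31 of the 40 genes, 13 of the replication and 18 of the mitotic set. The 150 bases before the start are given 5′ to 3′ on the strand of the gene, with matches in capitals. The capitals mark E2F letters (TTTCCCGC, TTTGGCGC, TTTCGCGC or TTTGCCGC), CHR letters of the cell cycle homology region (TTTGAA or TTCGAA) and the CCAAT box, each searched on both strands and, where a gene has several starts, at any of them.
Mcm2 (chr4:122918095-122918244, minus strand): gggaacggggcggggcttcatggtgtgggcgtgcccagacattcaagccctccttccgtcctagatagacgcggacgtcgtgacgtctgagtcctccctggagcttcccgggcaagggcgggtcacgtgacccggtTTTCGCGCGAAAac
Mcm6 (chr13:42404353-42404502, minus strand): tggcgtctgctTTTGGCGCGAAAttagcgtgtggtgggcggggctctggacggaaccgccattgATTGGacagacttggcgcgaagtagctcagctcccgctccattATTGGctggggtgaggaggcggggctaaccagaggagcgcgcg
Tyms (chr9:120776084-120776233, minus strand): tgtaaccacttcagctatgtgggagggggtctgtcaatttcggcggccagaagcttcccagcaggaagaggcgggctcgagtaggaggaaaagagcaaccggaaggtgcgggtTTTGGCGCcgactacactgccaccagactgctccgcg
Cdk1 (chr20:19265143-19265292, plus strand): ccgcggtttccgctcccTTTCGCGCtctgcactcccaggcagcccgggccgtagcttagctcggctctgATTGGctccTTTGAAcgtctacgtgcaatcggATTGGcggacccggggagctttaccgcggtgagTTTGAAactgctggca
Ccnb2 (chr8:79981659-79981808, minus strand): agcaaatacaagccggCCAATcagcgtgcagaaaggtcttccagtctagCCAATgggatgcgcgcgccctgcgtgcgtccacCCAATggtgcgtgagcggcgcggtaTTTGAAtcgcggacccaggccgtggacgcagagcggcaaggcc
Hmmr (chr10:25665216-25665365, minus strand): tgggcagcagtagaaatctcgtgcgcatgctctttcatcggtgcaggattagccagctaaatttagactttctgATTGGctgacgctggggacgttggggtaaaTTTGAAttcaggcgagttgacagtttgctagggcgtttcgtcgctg
Mki67 (chr1:199952594-199952743, minus strand): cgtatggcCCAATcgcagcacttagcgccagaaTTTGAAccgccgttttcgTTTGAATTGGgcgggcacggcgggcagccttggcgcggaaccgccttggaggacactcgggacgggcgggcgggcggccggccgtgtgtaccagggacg

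Mcm2 and Mcm6 each carry a pair of E2F matches that overlap on opposite strands, Tyms carries 1 E2F match, and Ccnb2 has 3 CCAAT boxes ahead of 1 CHR in the printed bases, the order also seen with 1 of each in Hmmr. In Mki67 a CHR and a CCAAT box overlap. Cdk1 holds letters of both kinds. Over the whole 300-base window E2F letters were found for 8 of 13 replication genes (61.5%) and 1 of 18 mitotic genes (5.56%, Cdk1). They were in 2.14% of the 33469 promoters of the table. The members are counted by gene and the table by promoter, so these shares are not in quite the same unit. CHR letters were found for 12 of 18 mitotic genes (66.7%), for 3 of 13 replication genes (23.1%) and in 19.7% of all promoters. CCAAT boxes were found for 15 of 18 mitotic genes, for 9 of 13 replication genes and in 37.5% of all promoters. Aurka, Bub1 and Ccne1 had none of the 3 in this window. These are matches of letters and not measured binding.

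The comparison of treated with untreated wounds asked whether messages of the cell cycle differ after DST-MNs. Of the 40 members, 39 had a log2 change below 0, against 49.5% of the 14427 genes tested. In the median member the highest and lowest libraries of each group were further apart than the group means. A range and a difference of means are unlike measures, and this was not computed for all genes. None of the 40 members was past the threshold of an adjusted p of 0.05, neither higher nor lower, while 0.776% of all genes were (edgeR's quasi-likelihood test, Benjamini-Hochberg over all genes). By direction, 0.658% of all genes were called higher and 0.118% lower. DESeq2 and limma-voom also called 0 of the 40, with background shares of 6.86% and 0.658%. Other scalings, filters and units called 0 of the 40 as well, against 0.735% of all genes with DESeq2 size factors, 0.859% with upper-quartile factors and 0.929% by total counts alone. The shares were 0.569% with no count filter, 0.289% with at least 10 counts in every library, 0.853% with a replicate block and 0.982% on log2(TPM + 1). At an unadjusted p below 0.05 there were 5 members, 4 with a negative change (Birc5, Cenpe, Cdk1 and Hmmr) and 1 with a positive one (Aurka), against 16.7% of all genes (6.88% lower and 9.8% higher). The adjusted p of the members ran from 0.211 to 0.838. The groups overlapped for every one of the 40, whereas they did not overlap for 22.9% of the genes tested. The median log2 change was -0.42 for the replication set (range -1.08 to -0.20), -0.76 for the mitotic set (-1.09 to 0.70) and 0.0044 for all genes.

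**Figure D1:**
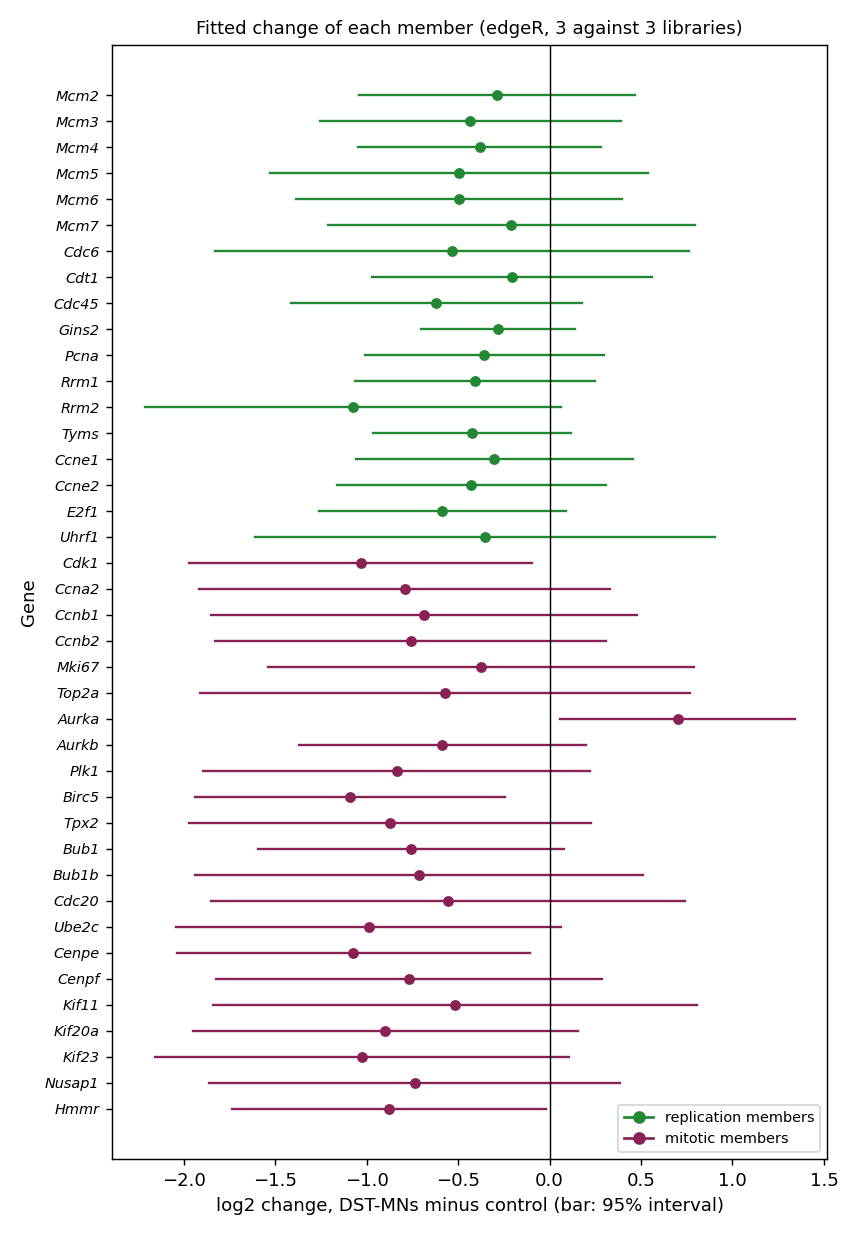
Fitted log2 change of each member (x axis, DST-MNs minus control) with its 95% interval, replication members above in green and mitotic members below in purple. Of the 40 intervals 35 include 0, and 39 of the 40 points lie left of 0, with Aurka alone on the right.

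The spread over libraries had one form that nearly all members shared. Control 2, control 3 and DST-MNs 1 were the 3 highest libraries for 38 of the 40 members, and for 9.17% of all genes tested. This form was noted after the values were seen. The exceptions were Gins2, where DST-MNs 2 took the place of DST-MNs 1, and Aurka. Control 1 was the lowest control for all 40, and DST-MNs 1 stood above control 1 for all 40. DST-MNs 2 was the lowest of the 6 libraries for 33. For these 3 counts the shares over all genes were not computed. The highest control was 2.10 times the lowest in the median member, and the highest treated library 2.44 times the lowest, while the mean of controls was in the median member 1.50 times that of treated libraries. Birc5 alone had a ratio of group means (2.13) above both of its within-group ratios (2.12 and 1.89). How many of all genes would have this was not computed.

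**Figure D2:**
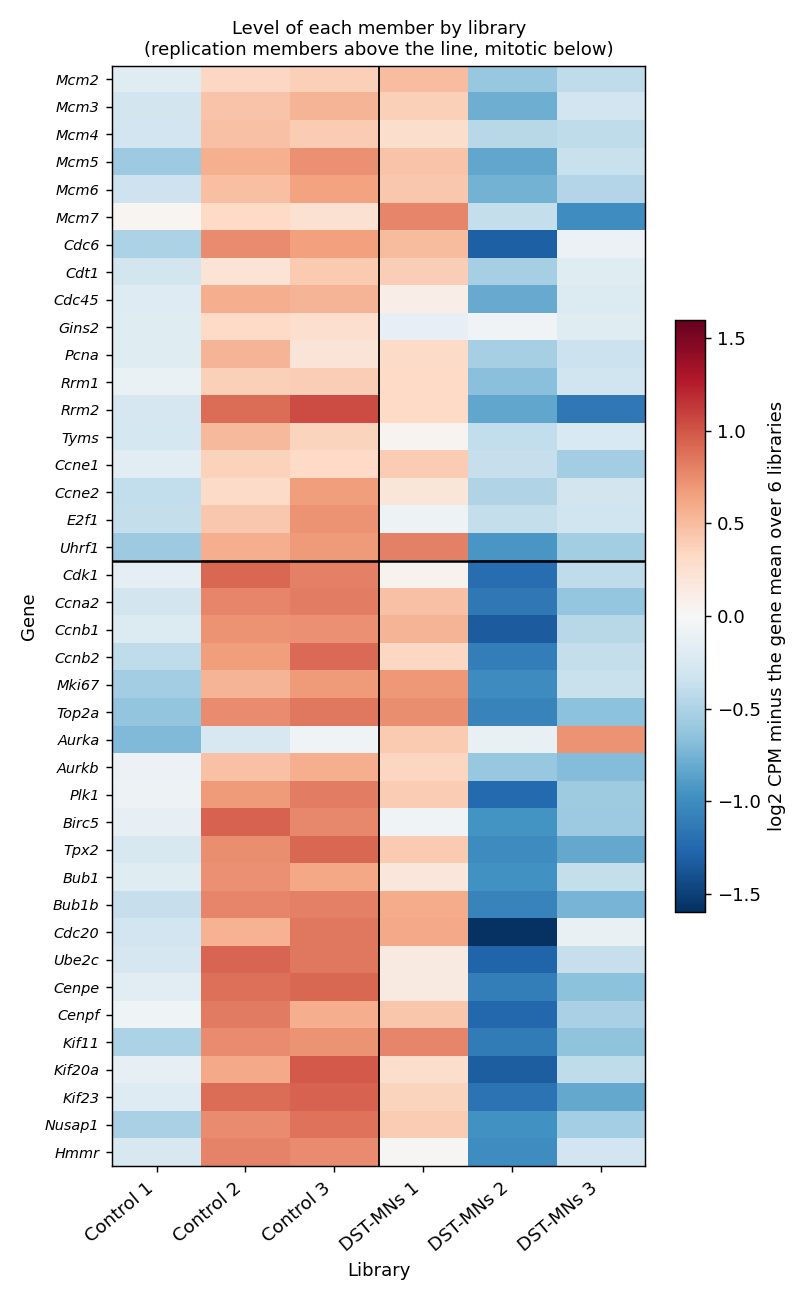
Level of each of the 40 members (rows) in each library (columns), as log2 CPM (counts relative to the total of the library) minus the mean of the gene over the 6 libraries, red above and blue below that mean. Control 2, control 3 and DST-MNs 1 are red in nearly all rows, DST-MNs 2 is blue in nearly all, and Aurka departs from the pattern.

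In summed TPM, transcript abundance scaled for gene length and library total, the 40 members together took 567, 1088 and 1138 in controls 1, 2 and 3. They took 1038, 444 and 535 in DST-MNs 1, 2 and 3. The treated library with the most cell-cycle RNA was thus above one control and close to the others. By mean TPM over the 6 libraries, Pcna stood first at 116, followed by Cdk1 at 61.1 and Ube2c at 56.9, and Cdc6 stood last at 3.06.

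Mcm2 to Mcm7 encode the 6 subunits of the replicative helicase, which enter the ring in equal number. Their mean TPM lay within 12.6 (Mcm5) and 25.9 (Mcm7). Mcm2 (gene ID 312538) stood at 29.9, 43.2 and 44.9 CPM in controls 1, 2 and 3 and at 48.3, 22.6 and 25.9 CPM in DST-MNs 1, 2 and 3. Its highest and its lowest value were both in treated libraries, and its group means were 39.3 ± 8.21 and 32.3 ± 14.0 CPM (SD, n = 3; log2 change -0.28, SE 0.32, adjusted p = 0.69 by edgeR). The log2 changes of the other 5 ran from -0.49 (Mcm5 and Mcm6) to -0.21 (Mcm7), all with intervals that included 0. Mcm7 was the subunit whose value in DST-MNs 3, 19.0 CPM, was below that in DST-MNs 2, 29.2 CPM, and its sign turned to 0.12 without DST-MNs 3.

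The factors that load and start the helicase had log2 changes of -0.62 (Cdc45, SE 0.33), -0.53 (Cdc6, SE 0.54), -0.28 (Gins2, SE 0.18) and -0.20 (Cdt1, SE 0.32). Cdc6 and Cdt1 bring MCM to origins, and Cdc45 and the GINS subunit Gins2 turn it into a working helicase. Cdc6 stood at 3.55, 8.77 and 8.16 CPM in the controls and 7.36, 1.98 and 4.79 CPM after treatment, the widest treated range of the replication set at 3.72-fold. Gins2 hardly varied among treated libraries (16.2, 17.2 and 15.6 CPM), which was the narrowest treated range of all members, and control 1 lay within it at 15.6 CPM. The counts of Gins2 were fractional in all libraries, so reads may be shared with similar genes and its level is uncertain.

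Pcna (gene ID 25737), the sliding clamp of DNA polymerase, stood at 65.5, 109.9 and 87.2 CPM in the controls and 93.4, 52.2 and 59.5 CPM in the treated wounds. The groups overlapped, with DST-MNs 1 above controls 1 and 3, and the change was -0.36 in log2 (adjusted p = 0.557, edgeR; SE 0.27). Among the enzymes that supply deoxynucleotides, the 2 subunits of ribonucleotide reductase differed in size of change, -0.41 for the large subunit Rrm1 and -1.08 for the small subunit Rrm2, without a test of that difference. Rrm2 (gene ID 362720) stood at 36.8, 82.8 and 91.5 CPM in controls and 55.2, 24.9 and 19.9 CPM in treated wounds (SE 0.48, adjusted p = 0.321, edgeR). This was the most negative change of the replication set, and its counts were fractional in all libraries. Tyms, thymidylate synthase, had a change of -0.43 (SE 0.23), and its counts were whole in 4 of 6 libraries, so reads may be shared.

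The regulators of the G1/S step had changes of -0.59 for E2f1, -0.43 for Ccne2, -0.35 for Uhrf1 and -0.30 for Ccne1. E2f1, an activating E2F factor, was nearly level in the treated wounds and in control 1. Its values were 14.4, 25.4 and 30.9 CPM in controls and 17.7, 14.4 and 15.0 CPM after treatment (adjusted p = 0.357, edgeR), so that controls 2 and 3 carried the difference. The cyclins E activate CDK2 for S phase entry. Uhrf1, which keeps DNA methylation through replication, had its highest value, 33.8 CPM, in DST-MNs 1.

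Mki67 and Top2a mark the chromosomes of dividing cells. Mki67 (gene ID 291234), the gene of the Ki-67 antigen used to stain proliferating cells in wounds, stood at 67.8, 145 and 159.7 CPM in the controls and 161, 49.5 and 77.7 CPM in the treated wounds. DST-MNs 1 was the highest of the 6 libraries and DST-MNs 2 the lowest, and the group means were 124 ± 49.4 and 95.9 ± 57.8 CPM (SD, n = 3; log2 change -0.37, 95% interval -1.54 to 0.79, adjusted p = 0.74, edgeR). Its change was -0.97 without DST-MNs 1 and -0.04 without DST-MNs 2. Top2a (gene ID 360243), topoisomerase II alpha, which untangles sister chromatids, stood at 31.5, 82.5 and 87.9 CPM in controls and 81.4, 23.2 and 30.9 CPM after treatment. The low control and the 2 low treated libraries lay together for this gene, and the fit gave it a change of -0.57 in log2 (adjusted p = 0.647, edgeR; SE 0.56).

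Cdk1 (gene ID 54237), the kinase that drives entry into mitosis, stood at 34.2, 72.5 and 67.3 CPM in the controls and 39.8, 16.3 and 28.8 CPM in the treated wounds. Only DST-MNs 1 and control 1 were out of order between the groups, and the log2 change was -1.03 (95% interval -1.97 to -0.10, unadjusted p = 0.0352 and adjusted p = 0.263, edgeR). Its cyclins had smaller changes, -0.79 for Ccna2, -0.76 for Ccnb2 and -0.69 for Ccnb1. Ccnb1 (gene ID 25203) stood at 24.3, 46.7 and 47.3 CPM in controls and 41.5, 11.2 and 20.8 CPM after treatment, a treated range of 3.72-fold. Counts of Ccnb2 were fractional in all libraries.

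**Figure D3:**
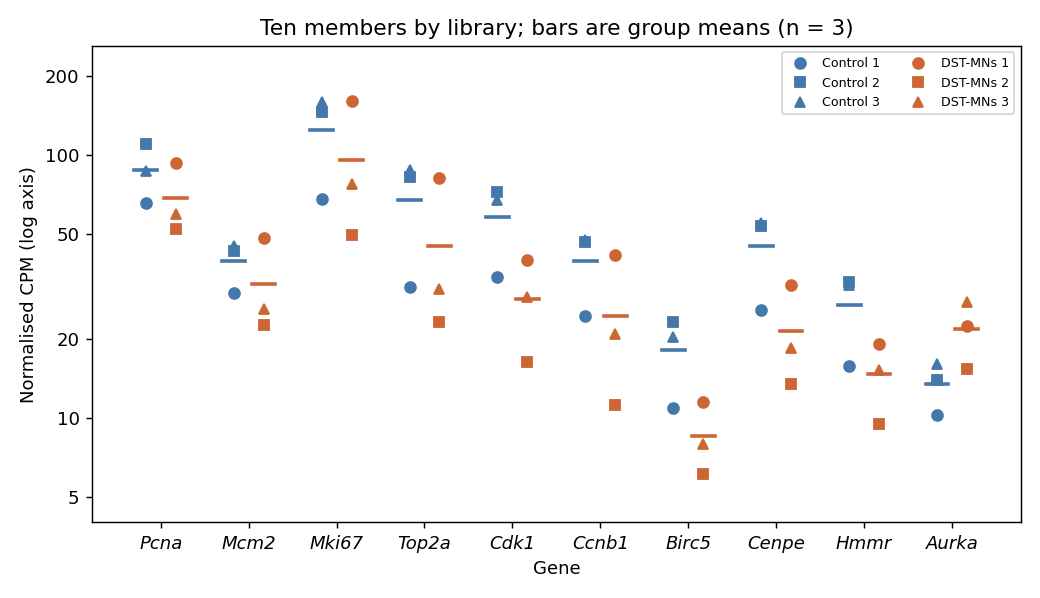
Normalised CPM (log axis) of 10 members in each library, controls in blue and DST-MNs in orange, with the symbol giving the replicate and the bar the group mean. Circles, replicate 1, are the lowest blue point in all 10 genes and, save for Aurka, the highest orange point.

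Among the mitotic kinases and their partners, Birc5 and Aurka lay furthest apart. Birc5 (gene ID 64041), survivin, the chromosomal passenger that guides Aurora B, stood at 10.9, 23.1 and 20.4 CPM in the controls and 11.5, 6.09 and 7.93 CPM in the treated wounds. Control 1 and DST-MNs 1 were nearly equal, and the log2 change of -1.09 (95% interval -1.94 to -0.24, adjusted p = 0.211, edgeR) was the most negative of the 40. Aurkb, its kinase, had a change of -0.59, Plk1, a kinase of centrosome maturation and mitotic exit, one of -0.84, and Tpx2, the spindle factor that activates Aurora A, one of -0.87. Aurka (gene ID 261730), the Aurora A kinase of the centrosome, stood at 10.2, 14.0 and 16.0 CPM in the controls and 22.4, 15.3 and 27.6 CPM in the treated wounds. It was the one member with a positive change, 0.70 (95% interval 0.06 to 1.34, adjusted p = 0.266, edgeR), and DST-MNs 2 lay between controls 2 and 3. Its counts were whole in all libraries, and its change stayed between 0.50 and 0.91 whichever library was omitted.

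The genes of the spindle checkpoint and of anaphase had changes of -0.99 (Ube2c, SE 0.44), -0.76 (Bub1, SE 0.35), -0.71 (Bub1b, SE 0.51) and -0.55 (Cdc20, SE 0.54). Bub1 and Bub1b hold back anaphase until chromosomes are attached, and Cdc20 and Ube2c serve the anaphase-promoting complex. Cdc20 had the widest range of any member among treated wounds, from 7.04 CPM in DST-MNs 2 to 32.7 CPM in DST-MNs 1, or 4.64-fold. Its controls ran from 17.3 to 38.3 CPM and enclosed 2 of the 3 treated values.

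The kinetochore and spindle genes had changes from -1.07 (Cenpe) to -0.52 (Kif11). Cenpe (gene ID 362044), the kinetochore motor that carries chromosomes to the metaphase plate, stood at 25.8, 53.6 and 55.1 CPM in the controls and 32.1, 13.4 and 18.4 CPM in the treated wounds (95% interval -2.04 to -0.11, adjusted p = 0.261, edgeR). Hmmr (gene ID 25460), a spindle protein that also binds hyaluronan, stood at 15.8, 32.8 and 32.0 CPM in controls and 19.1, 9.47 and 15.2 CPM after treatment (log2 change -0.88, interval -1.74 to -0.02, adjusted p = 0.292, edgeR). For both genes, control 1 lay inside the treated range and controls 2 and 3 above it. Kif23, a motor of cytokinesis, had a change of -1.03 (SE 0.48), Kif20a, another, one of -0.90 (SE 0.44; counts whole in 1 of 6 libraries, so reads may be shared), and the kinetochore protein Cenpf and the spindle protein Nusap1 had changes of -0.77 and -0.74.

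Replication and mitotic genes were compared within each library by the median deviation of their log2 CPM from the gene means. The replication set stood at -0.29, 0.47 and 0.48 in controls 1, 2 and 3 and at 0.35, -0.57 and -0.33 in DST-MNs 1, 2 and 3. The mitotic set stood at -0.26, 0.75 and 0.81 and at 0.41, -1.11 and -0.53 in the same order. Both sets ranked the libraries alike at the top, and the mitotic set swung further in both directions in 5 of the 6 libraries. Replication minus mitosis was -0.03, -0.29 and -0.33 in the controls and -0.06, 0.54 and 0.20 in the treated wounds. DST-MNs 2 and 3 were thus above every control in this difference, while DST-MNs 1 lay inside the control range. On the TPM scale the mitotic sum was 1.08, 1.33 and 1.42 times the replication sum in the controls and 1.09, 0.792 and 1.12 times in the treated wounds, so DST-MNs 2 alone held fewer mitotic than replication transcripts. Of the 22 mitotic members, 20 had a change below the median of the replication set. No test was made over these sets.

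**Figure D4:**
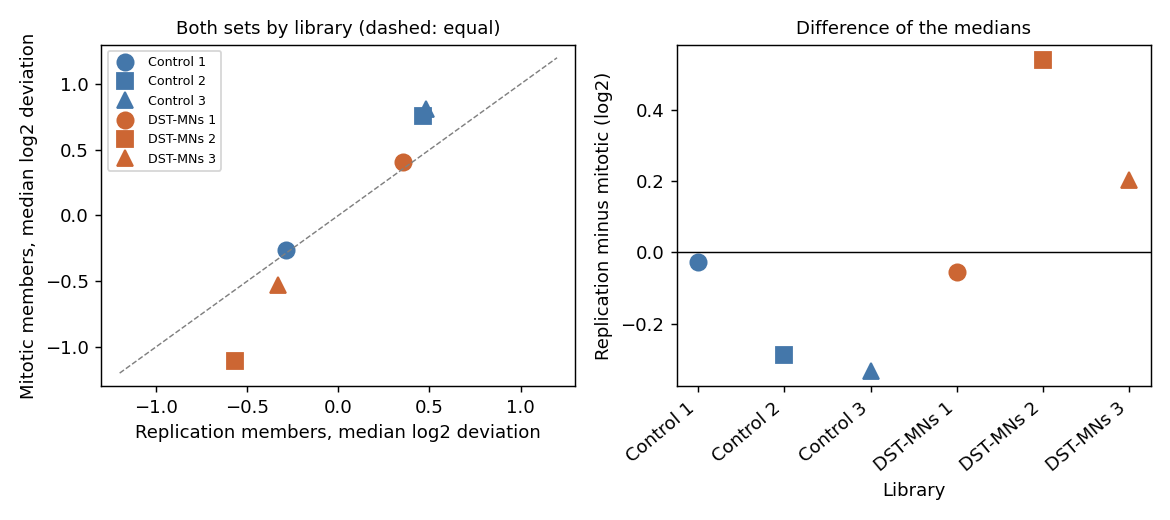
Left, the median log2 deviation of the mitotic members (y axis) against that of the replication members (x axis) for each library, with the line of equality dashed. Right, the replication minus the mitotic median (log2) for each library, which is highest in DST-MNs 2 at 0.54 and lowest in control 3 at -0.33.

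Further genes of the cycle were read from 12 lists, 175 genes tested in all. None was past the threshold in either direction, while 0.776% of all genes were. At an unadjusted p below 0.05 there were 22 with a negative change, against 6.88% of all genes, and 1 with a positive one, against 9.8%. Negative changes numbered 152 of the 175 (median -0.36), against 49.5% of all genes (median 0.0044). The groups did not overlap for 14 of the 175, against 22.9% of all genes, 12 of them lower after treatment (Spc24, Anapc5, Anapc11, Ube2s, Mnat1, Ccnh, Cdk7, Rfc3, Stag1, Rbbp4, Cdkn2d and Btg2) and 2 higher (Cdkn2b and Orc5). Cdk7, Ube2s and Rbbp4 were named only to complete this count, after their values were seen. The same 3 libraries as for the members were the highest in 116 of the 175 genes (66.3%), against 9.17% of all genes. They were so in 7 of 7 genes of chromatin assembly, 24 of 26 of spindle, motors and cytokinesis, 13 of 15 of centromere and kinetochore and 12 of 14 of the checkpoint list. The count was 16 of 20 for origin licensing, 17 of 23 for polymerases and fork factors, 11 of 15 for condensin and cohesin and 10 of 19 for the RB, E2F and DREAM list. It was 4 of 15 for the APC/C, 1 of 7 for CDK inhibitors, 1 of 9 for G1 cyclins and kinases and 0 of 5 for the BTG and TOB genes.

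Among centromere and kinetochore genes (15 of 15 changes negative, median -0.81), Spc24 of the NDC80 complex was at -1.25 in log2 (adjusted p = 0.213, edgeR; SE 0.41), and Cenph was at -0.91. Among spindle and cytokinesis genes (25 of 26 negative, median -0.69), the midbody proteins Cep55 and Anln had changes of -0.97 and -1.14. Geminin, Gmnn, which blocks relicensing of origins, had a change of -0.90 and Orc5 of the origin recognition complex one of 0.26, in a list with 16 of 20 negative and a median of -0.40. The polymerase and fork genes (22 of 23 negative, median -0.32) included the clamp loader subunit Rfc3 at -0.46 and the single-strand binding subunit Rpa2 at -0.43. Slbp, which binds histone messages, and the chromatin assembly subunit Chaf1b were at -0.48 and -0.73 (7 of 7 negative, median -0.36). The checkpoint list (12 of 14 negative, median -0.39) included the kinase Melk at -1.01 and the phosphatase Cdc25c at -0.47.

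Mybl2, which encodes B-MYB and with FOXM1 drives mitotic genes, stood at 20.5, 38.1 and 36.2 CPM in the controls and 22.2, 8.51 and 10.8 CPM in the treated wounds (log2 change -1.19, SE 0.41, adjusted p = 0.226, edgeR). E2f7, a repressor E2F that is itself a target of E2F, had a change of -0.85, and 13 of the 19 genes of the RB, E2F and DREAM list were negative with a median of -0.10. The condensin core subunit Smc2 was at -0.75 and the cohesin subunit Stag1 at -0.32 (14 of 15 negative, median -0.27). The APC/C subunits Anapc5 and Anapc11 were at -0.44 and -0.61 (15 of 15 negative, median -0.12). The CDK-activating kinase subunits Mnat1 and Ccnh were at -0.43 and -0.39 (6 of 9 negative, median -0.25).

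Genes that hold the cycle back gave no common direction. Of the CDK inhibitors, Cdkn2b, an inhibitor of CDK4 and CDK6, stood at 6.88, 3.73 and 4.59 CPM in the controls and 20.8, 10.9 and 8.17 CPM in the treated wounds. The groups did not overlap, and the change was 1.39 in log2 (adjusted p = 0.186, edgeR; SE 0.42). Cdkn2d was at -0.45, and 4 of the 7 inhibitors had negative changes (median -0.09). Cdkn1a, the p21 inhibitor, named after its values were seen, was highest in control 1 at 129.5 CPM and stood at 48.4 and 49.1 CPM in controls 2 and 3, and at 78.5, 96.9 and 80.8 CPM in DST-MNs 1, 2 and 3. The lowest Cdkn1a values were thus in the 2 controls with the most cell-cycle RNA. Cdkn1c, also named after its values were seen, stood at 85.5, 48.4 and 35.2 CPM in controls 1, 2 and 3. It stood at 44.5, 109 and 118.7 CPM in DST-MNs 1, 2 and 3. Cdkn2c went the other way, being highest in controls 2 and 3 and DST-MNs 1, as most members were. Cdkn1b, likewise named after its values were seen, showed neither order. It stood at 76.4, 98.7 and 76.0 CPM in controls 1, 2 and 3. Its values in DST-MNs 1, 2 and 3 were 72.5, 72.8 and 90.9 CPM. The antiproliferative genes Btg2 and Btg3 were at -0.85 and -0.54 (3 of 5 negative in their list, median -0.17).

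**Figure D5:**
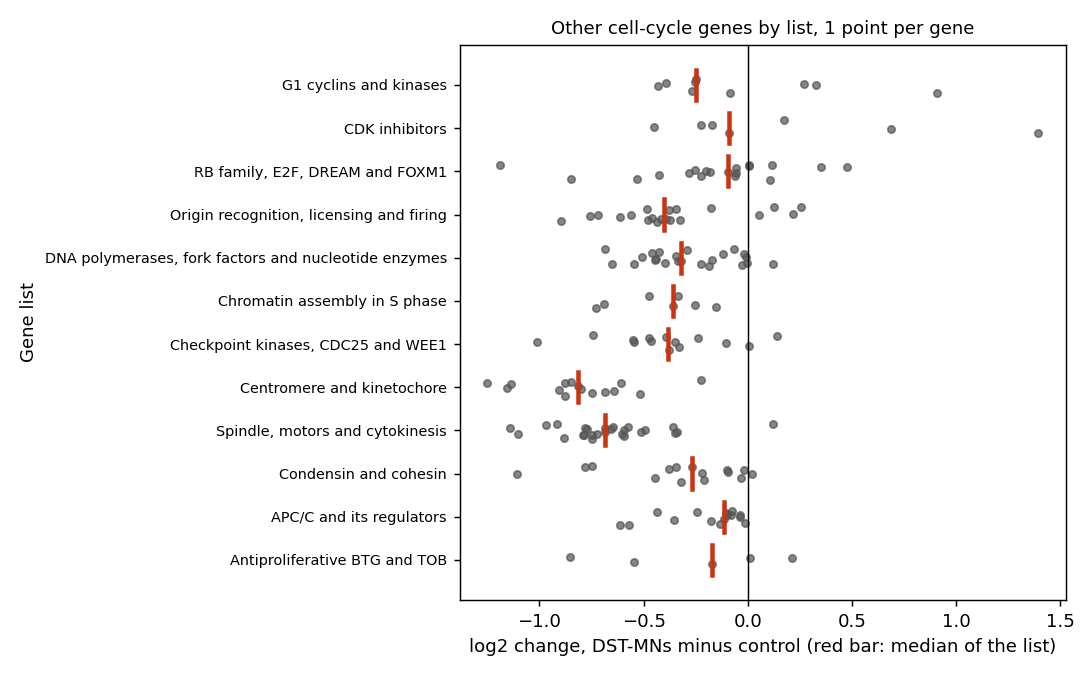
Log2 change (x axis, DST-MNs minus control) of the 175 further cell-cycle genes, 1 point per gene in 12 lists (rows), with the median of each list as a red bar. The lists of centromere and kinetochore (-0.81) and of spindle and cytokinesis (-0.69) lie furthest to the left, and those of CDK inhibitors (-0.09) and RB, E2F and DREAM genes (-0.10) nearest to 0.

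Library totals were 12545206 to 13818548 counts, and markers of several cell types differed widely between libraries. The 7 basal keratinocyte markers found of 8 listed summed to 212 to 422 CPM in controls and 528 to 4265 CPM after treatment, the highest in DST-MNs 1, with Krt15 at 0 in at least 1 library. All 9 listed markers of hair matrix and root sheath were found and summed to 1330 CPM in DST-MNs 1, 5.94 and 12.6 CPM in DST-MNs 2 and 3 and 6.06 to 27.3 CPM in controls. Of them Krt25, Krt27, Krt28, Krt71 and Hoxc13 were at 0 in at least 1 library. The 7 sebocyte markers summed to 24.2 to 98.1 CPM in controls and 448 to 601 CPM after treatment. Of them 3 passed the threshold as higher (edgeR), against 0.658% of all genes. The 7 skeletal muscle markers summed to 14.5 and 259 CPM in controls 2 and 3, the high controls, against 5996 CPM in control 1 and 4079 to 4755 CPM in treated wounds, and Ckm, Myh2 and Myh4 were at 0 in control 2. The sums of the 7 fibroblast markers (78942 to 114626 CPM in controls, 67332 to 90416 CPM after treatment) and the 8 macrophage markers (2700 to 3746 and 2817 to 4222 CPM) did not set apart the 3 libraries with the most cell-cycle RNA. Most of the fibroblast sum was Col1a1, Col1a2 and Col3a1. All 7 fibroblast markers had a negative change, against 49.5% of all genes. Of the 7, 0 passed the threshold (edgeR), against 0.776% of all genes. The groups did not overlap for 1 of them, Pdgfra, against 22.9% of all genes. Pdgfra stood at 478, 474 and 444 CPM in controls 1, 2 and 3. It stood at 240, 304 and 276 CPM in DST-MNs 1, 2 and 3. The 8 endothelial markers, none at 0 in any library, summed to 1300.5, 1492 and 1472 CPM in controls 1, 2 and 3 and to 977, 1273 and 1070.1 CPM in DST-MNs 1, 2 and 3. That sum was lower in every treated library than in every control, by little between control 1 and DST-MNs 2. DST-MNs 1 had the lowest sum, though it was among the 3 libraries with the most cell-cycle RNA. Control 1 had the lowest sum of the controls, as it had the lowest level of the controls for every member. Of the 8 endothelial markers 7 had a negative change, against 49.5% of all genes. Of the 8, 0 passed the threshold (edgeR), against 0.776% of all genes. The groups did not overlap for 3 of the 8, all lower after treatment, against 22.9% of all genes. The part of tissue makeup in the cell-cycle levels was not tested.

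The member counts at an unadjusted p depended on single libraries. Without DST-MNs 1, 29 of the 40 members (10 replication and 19 mitotic) had a negative change at an unadjusted p below 0.05, against 7.93% of all genes, with medians of -0.72 (replication) and -1.33 (mitosis). No member had an adjusted p below 0.05 in that fit, the lowest being 0.181 (edgeR), while 0.158% of all genes did. Without control 1 the unadjusted count was 18, against 8.75% of all genes, with medians of -0.65 and -1.07. The lowest adjusted p was then 0.0698, for E2f1 (edgeR), with 2.74% of all genes called. Without control 2 or control 3 no member had a negative change at an unadjusted p below 0.05, against 3.33% and 4.31% of all genes, and 0.231% and 0.36% were past the adjusted threshold. Without DST-MNs 2 or DST-MNs 3 there was again none, against 6.54% and 5.7%, with 0.232% and 0.096% past the adjusted threshold. In these last 4 fits the medians ran from -0.34 to -0.21 (replication) and from -0.65 to -0.47 (mitosis). DESeq2 on all 6 libraries had 10 members with a negative change at an unadjusted p below 0.05, against 6.8% of all genes. Single members moved in the same way between the fits without DST-MNs 1 and without DST-MNs 2. Mcm2 was at -0.70 and -0.07, Top2a at -1.32 and -0.24, Ccnb1 at -1.31 and -0.32, Cdk1 at -1.37 and -0.74, Cenpe at -1.50 and -0.81, Cdc20 at -1.13 and -0.13 and Uhrf1 at -1.07 and -0.03. Pcna ran from -0.66 without DST-MNs 1 to -0.17 without control 2, Rrm2 from -1.65 without DST-MNs 1 to -0.80 without DST-MNs 3, and Birc5 from -1.37 without DST-MNs 1 to -0.88 without control 2. Hmmr ran from -1.15 without control 1 to -0.63 without DST-MNs 2.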

How the data were processed

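Per the labels' protocols, TRIzol was used for extraction, and mRNA libraries were read from both ends on the DNBSEQ-T7. The authors deposited 1 table with a column of each unit for each library. Estimated counts were deposited unscaled (per the file headers), 90.5% to 91.4% of them whole. TPM values deposited by the authors are scaled for gene length. The FPKM values and the normalised counts, a signal the authors scaled by library, were deposited too and not used. The build was mRatBN7.2, per the submitters' processing notes. Aligner and counter: not given in the sources used here. Groups came from sample titles, and columns were matched by library name. The members and lists were chosen with earlier results of these data known.

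Expected counts were rounded, filtered with filterByExpr of edgeR 4.0.16 (minimum count 10), which left 14427 genes, scaled with TMM and tested with the quasi-likelihood test in R 4.3.3, adjusted by Benjamini-Hochberg at 0.05. CPM are scaled by TMM, with a prior count of 2 on the log2 scale. The standard error is the change divided by the square root of F, and 95% intervals use the degrees of freedom of the test. Totals of 12545206 to 13818548 counts set the depth, and no member had fewer than 27 counts in a library (Cdc6). The p-values set the difference between groups against the spread between libraries within the groups. Named were all members by role, with values by library for those at an unadjusted p below 0.05 or without overlap and for Mki67, Pcna, Mcm2, Cdk1, Ccnb1 and Top2a (a few others were added after their values were seen), and from each list of further genes any past the threshold and the 2 with the smallest p. Of the list entries, Ncaph, Trp63, Lor, Klrb1 and Jchain were not matched by symbol. Promoters were matched by gene ID, and their build differs from that of the counts. The edgeR step was tested on simulated counts. Alternatives were DESeq2 1.42.0, limma 3.58.1 (voom, and a trend test on log2(TPM + 1) at a mean TPM of at least 1), other scalings and filters, a replicate block and each library left out. Figures used matplotlib 3.10.9.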

Additional observations from a re-analysis of the deposited data

How the results depend on the processing

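The count of members past the threshold was 0 in both directions under the 15 alternatives, 6 of which leave out a library, and 38 or 39 of the 40 changes were negative in each. Cdt1 ran from -0.51 to 0.0040 (positive without DST-MNs 2) and Mcm7 from -0.87 to 0.12 (positive without DST-MNs 3) over the fits that omit a library, and the cause was not tested. The count over all genes was 112, and moved to 38 with at least 10 counts required in every library, to 1070 with the DESeq2 Wald test, and to 14 to 402 with each library left out in turn. With DESeq2 the lowest adjusted p among members was 0.0592, with 10 negative changes at an unadjusted p below 0.05. Scaling by total counts alone moved the median of all genes to 0.12 and those of the replication and mitotic sets to -0.28 and -0.63, and log2(TPM + 1) gave 0.12, -0.30 and -0.61. With the replicate number as a block, 123 genes and 0 members were called (lowest adjusted p among members 0.298), and the set medians were -0.43 and -0.86. Libraries of the same number had correlations of deviations of -0.0245, 0.101 and 0.109, and those of different numbers ran from -0.219 to 0.104. The deviations were taken within groups of 3 libraries, so these values cannot decide whether the numbers pair animals. The labels state no pairing, and the main fit used none. With 3 libraries a group and a biological coefficient of variation of 30.2%, the intervals of most members span 0, which does not show that the groups are alike.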
